A study of Mus musculus with 9 samples.

Results

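The 9 genes described here encode complement components and receptors of the classical and alternative pathways: C1qa, C1qb, C1qc and C4b of the classical pathway, the central component C3, Cfb and Cfp of the alternative pathway, and the anaphylatoxin receptors C3ar1 and C5ar1. They were chosen by gene name, and all 9 were found among the 45706 genes of the deposited table and passed the filter on low values, which left 13248 genes. Expression was measured by poly(A) RNA sequencing in lungs of female BALB/c mice, 4 to 6 weeks old, into whose right flank 4T1 cells, a mouse mammary carcinoma line, had been injected. The groups were given phosphate-buffered saline (PBS) as control, free antibody to PD1, the inhibitory receptor of activated T cells, or that antibody in nanocapsules, given on days 7 and 14, with lung collection on day 21. All groups carried the tumour, so no group shows a lung without it, and the labelled dose of 150 µg per mouse may or may not hold for the free antibody. There were 3 lungs per group; whether a library holds a whole lung or pooled animals is not given in the sources used here. The lungs are numbered in the labels, with no animal named, and what the p-values measure is the spread among these 9 samples.

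Complement is a cascade of plasma proteins that marks targets for uptake and lysis. In the classical pathway, C1q, a complex of A, B and C chains, binds antibody or other ligands, and the attached proteases C1r and C1s cleave C4 and C2 to form an enzyme that cleaves C3. In the alternative pathway, C3 that has been deposited on a surface binds factor B, factor D cleaves factor B, and properdin stabilises the resulting enzyme. Cleavage of C3 and C5 releases the anaphylatoxins C3a and C5a, which act on the receptors C3aR1 and C5aR1 of myeloid cells. The liver makes most plasma complement, while macrophages, epithelium, fibroblasts and neutrophils make components locally.

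The unit is TPM, a transcript abundance corrected for length and scaled to 1000000 in each library, so levels can be compared between genes, but depth is unknown. Differences are log2 differences of TPM + 1 fitted by limma over all 13248 genes and called at a Benjamini-Hochberg adjusted p under 0.05. Of the total TPM, the neutrophil transcripts S100a8 and S100a9 made up 12.1% to 16.7% under PBS, 10.3% to 12% under anti-PD1 and 15.5% to 17.5% with nanocapsules. Genes of lung epithelium were present, with summed levels of 3007 to 12826 TPM for Sftpc, Sftpb, Scgb1a1, Ager and Cldn18. The 6 hepatocyte genes summed to 0.00494 to 0.964 TPM, and Ttr was at 0 in all 9 lungs. Across the tested genes the log2 differences had a median of 0.04 (anti-PD1 against PBS), -0.11 (nanocapsule against PBS) and -0.17 (nanocapsule against anti-PD1). Scaling by median-of-ratios size factors, which by design brings such medians near 0, gave -0.0058, -0.0045 and -0.024. Differences in the reported fit are to be read against its own medians. In these bulk lungs, fewer cells of a type and less RNA per cell cannot be told apart.

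The 9 genes differed widely in level. Over the 9 lungs, C5ar1 was highest, with a mean of 311.8 TPM, above 96.9% of the tested genes, followed by C3 at 184 TPM and Cfp at 157 TPM. C1qa (37.5 TPM), Cfb (36.9 TPM), C1qb (21.8 TPM), C1qc (21.4 TPM) and C4b (18.9 TPM) formed a middle range, and C3ar1 was lowest, at 1.80 TPM, above 12.8% of the tested genes. C5ar1 lay above C3 in 9 of 9 lungs, C3 above Cfp in 8, Cfb above C1qb in 8, and C4b above C3ar1 in 9. C1qa lay above Cfb in 4 of 9 lungs, C1qb above C1qc in 6 and C1qc above C4b in 6, so these neighbours did not differ beyond their spread. The plot of the 9 genes by lung shows this range and the spread within groups.

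**Figure D1:**
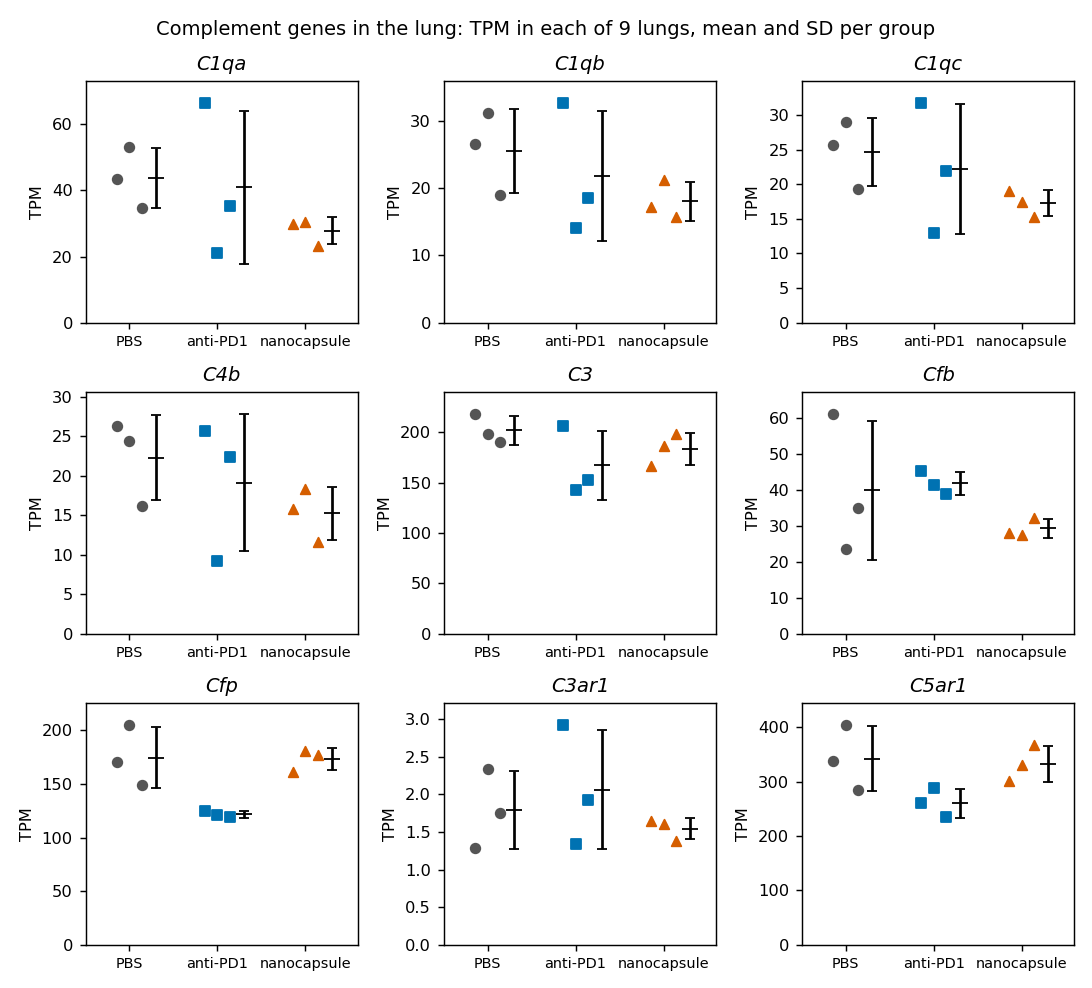
TPM (vertical axes, linear, from 0) of the 9 complement genes in each lung, with PBS as circles, anti-PD1 as squares and nanocapsule as triangles, and the group mean with its SD (n = 3) as a black bar. Cfp in the 3 anti-PD1 lungs sits at 119 to 125 TPM, below all other lungs, while the C1q genes spread most widely among the anti-PD1 lungs.

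No complement gene was called in any comparison. Limma called 1 gene of 13248 (0.00755%) for anti-PD1 against PBS, 1 (0.00755%) for nanocapsule against PBS and 14 (0.106%) for nanocapsule against anti-PD1, and none of the 9 was among them. At an unadjusted p under 0.05, Cfp and C5ar1 were lower under anti-PD1 than under PBS, where 8.06% of all genes were lower and 8.48% higher at that level. The same 2 genes were higher with nanocapsules than under anti-PD1, against 6.69% of all genes. None of the 9 reached it for nanocapsule against PBS, where 8.92% of all genes were lower at that level. By group mean alone, 7 of the 9 were lower and 2 higher for anti-PD1 against PBS (43.1% and 56.9% of all genes), 9 and 0 for nanocapsule against PBS (71.2% and 28.8%, with Cfp and C5ar1 turning to 0.12 and 0.087 under median-of-ratios scaling), and 6 and 3 for nanocapsule against anti-PD1 (70.8% and 29.2%). These comparisons share groups, so Cfp and C5ar1 under anti-PD1 enter both counts. The 9 genes had a median log2 difference of -0.28 for anti-PD1 against PBS, -0.33 for nanocapsule against PBS and -0.21 for nanocapsule against anti-PD1.

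**Figure D2:**
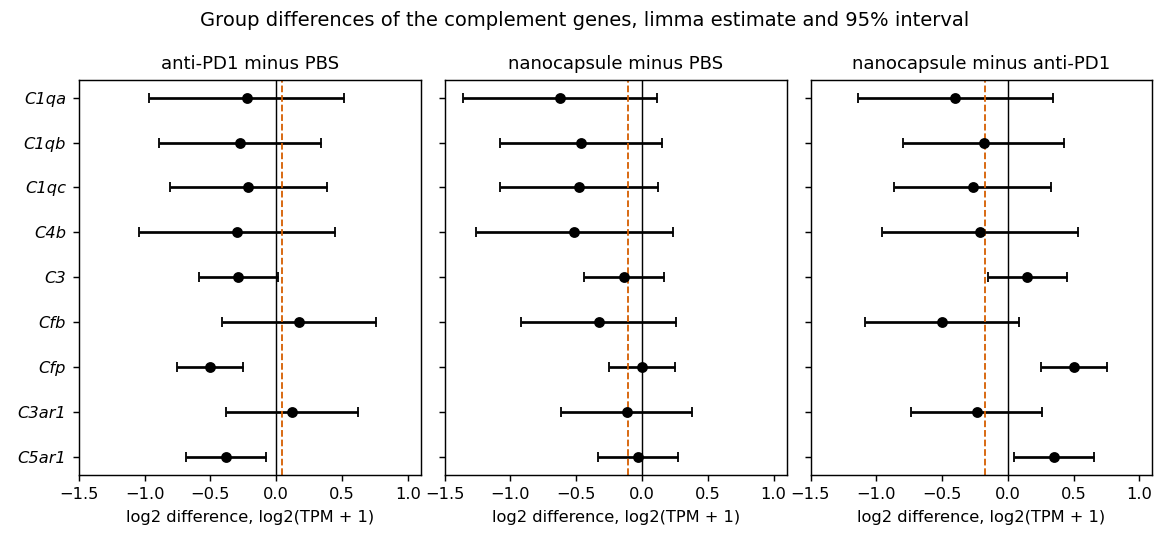
Log2 differences of TPM + 1 (horizontal axes) of the 9 complement genes in the 3 comparisons, with the limma estimate as a point, its 95% interval as a bar and the median of all tested genes as a dashed line. The intervals of Cfp and C5ar1 leave out 0 for anti-PD1 minus PBS and for nanocapsule minus anti-PD1, and all others include it.

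C1qa, C1qb and C1qc, which encode the chains of C1q, lie next to each other on the minus strand of chromosome 4 of GRCm38, at 136895917 to 136898803, 136880129 to 136886187 and 136889804 to 136893065, within 18675 bases. They are protein coding and overlap no other annotated gene. No stretch of 31 bases is shared between their annotated transcripts, so reads are unlikely to be exchanged among them. Because their levels moved together over the lungs, the promoters of C1qb and C1qc are shown, from 250 bases before to 50 bases after the RefSeq start on GRCm38.p6, and capitals mark a match to the PU.1 motif.
C1qb, chr4:136886151-136886450, minus strand: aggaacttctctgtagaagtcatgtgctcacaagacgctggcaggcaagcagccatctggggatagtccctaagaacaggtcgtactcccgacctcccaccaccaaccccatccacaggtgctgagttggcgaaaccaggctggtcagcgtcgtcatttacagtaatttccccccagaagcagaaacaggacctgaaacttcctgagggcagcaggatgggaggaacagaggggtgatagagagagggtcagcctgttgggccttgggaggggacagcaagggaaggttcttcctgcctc
C1qc, chr4:136892865-136893164, minus strand: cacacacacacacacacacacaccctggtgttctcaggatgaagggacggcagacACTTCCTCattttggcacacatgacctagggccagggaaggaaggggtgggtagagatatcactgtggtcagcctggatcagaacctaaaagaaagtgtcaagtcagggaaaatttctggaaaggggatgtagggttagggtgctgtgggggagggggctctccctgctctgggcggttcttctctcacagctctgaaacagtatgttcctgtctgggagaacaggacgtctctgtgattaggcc
PU.1 is a transcription factor of macrophages and neutrophils. The letters GAGGAAGT, searched on both strands, matched C1qc from 195 to 188 bases before the start, as the complement ACTTCCTC, and did not match C1qb. Of 32851 RefSeq promoters, 3.2% hold these letters. GAAA, any 2 bases and GAAA again, the interferon-stimulated response element (3.44% of promoters), TTCNNNGAA, the gamma-activated site (8.3%), and TTGCNNAA, the C/EBP motif (10.8%), matched neither window. A match is only of letters and shows no binding.

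C1qa was at 43.6, 53.0 and 34.7 TPM in PBS lungs 1 to 3, at 66.5, 21.0 and 35.3 TPM in anti-PD1 lungs 1 to 3, and at 29.9, 30.5 and 23.3 TPM in nanocapsule lungs 1 to 3. The nanocapsule lungs were all under the lowest PBS lung, while the anti-PD1 lungs held both the highest and the lowest value of the series. The group means were 43.8 ± 9.15, 40.9 ± 23.3 and 27.9 ± 3.97 TPM for PBS, anti-PD1 and nanocapsule (SD, n = 3). The nanocapsule against PBS log2 difference was -0.62 (SE 0.33, limma adjusted p = 0.545), with a 95% interval from -1.36 to 0.12.

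C1qc was at 25.7, 29.0 and 19.3 TPM under PBS, at 31.8, 12.9 and 21.9 TPM under anti-PD1 and at 19.0, 17.4 and 15.3 TPM with nanocapsules. Here too no nanocapsule lung reached the lowest PBS lung, and the log2 difference was -0.48 (SE 0.27, limma adjusted p = 0.563). C1qb was at 26.5, 31.2 and 18.9 TPM, at 32.7, 14.1 and 18.6 TPM and at 17.2, 21.2 and 15.7 TPM in the same order. Its nanocapsule and PBS groups overlapped, and the log2 difference was -0.46 (SE 0.28, limma adjusted p = 0.583). Of all tested genes, 11.9% had 3 nanocapsule lungs below 3 PBS lungs and 2.4% had them above, and of the 9 complement genes 2, C1qa and C1qc, had them below.

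Anti-PD1 lung 1 was high and anti-PD1 lung 2 low in every C1q gene. The highest anti-PD1 lung exceeded the lowest 3.16-fold for C1qa, 2.32-fold for C1qb and 2.46-fold for C1qc, against 1.31-fold, 1.36-fold and 1.24-fold among the nanocapsule lungs. The anti-PD1 against PBS log2 differences were -0.22 (SE 0.33), -0.28 (SE 0.28) and -0.21 (SE 0.27) for C1qa, C1qb and C1qc (limma adjusted p = 0.771, 0.644 and 0.730). Without anti-PD1 lung 2 those of C1qa and C1qc turned to 0.17 and 0.11, and without anti-PD1 lung 1 that of C1qa was -0.64. For C1qb the difference was -0.60 to -0.02 when 1 lung at a time was left out, the ends being those without anti-PD1 lungs 1 and 2. For nanocapsule against anti-PD1, the C1q differences were -0.40, -0.18 and -0.27 (SE 0.33, 0.28 and 0.27), and they were 0.02, 0.14 and 0.03 without anti-PD1 lung 1.

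The proportions of the 3 chains were steadier than their sum. The summed level of C1qa, C1qb and C1qc ranged from 48.0 to 131 TPM over the 9 lungs, a 2.73-fold range. C1qa made up 42.9% to 50.8% of the sum, C1qb 24.5% to 30.7% and C1qc 24.3% to 28.9%. The chain proteins are assembled in equal number, but the transcripts were not equal, as C1qa had the largest share in every lung. The C1qb to C1qc ratio of the transcripts was 0.848 to 1.22. The C1qa share was 46.7% ± 1.08 under PBS and 44.1% ± 1.11 with nanocapsules (SD, n = 3), with no overlap (exact permutation p = 0.1, two-sided, the smallest that 3 against 3 allows). Of 36 pairs among the 9 genes, C1qa and C1qc were the closest, with Pearson r = 0.983 and Spearman rho = 0.983 over 9 lungs (exact permutation p = 8.27e-06 and 4.96e-05, adjusted over the 36 pairs 0.000298 and 0.00179). The r was 0.975 without the 2 lungs farthest from the median of C1qa, and 0.978 for deviations from the group means (exact permutation p = 0.0185 within groups, adjusted 0.208). Of the 36 pairs, none had a within-group adjusted p under 0.167.

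The summed level of macrophage genes did not follow C1q over the lungs. C1qa and that sum had r = 0.29 and rho = -0.033 (exact permutation p = 0.454 and 0.948, adjusted over 99 relations 0.762 and 0.988), and r = -0.135 without the 2 lungs farthest from the median of C1qa. The list of 12 macrophage genes, in which Apoe and Cd68 were the most abundant, summed to 1366 to 1611 TPM under PBS, 1478 to 1909 TPM under anti-PD1 and 1295 to 1490 TPM with nanocapsules. For nanocapsule against PBS, 9 of the 12 were lower, against 71.2% of all tested genes, and their median log2 difference was -0.16, against -0.11. The sum gives little weight to the low-level genes of the list. Among these, Folr2, Lyve1 and Mertk had log2 differences of -0.55, -0.53 and -0.51 (limma adjusted p = 0.437, 0.611 and 0.474). Of the 3 genes of the list that were higher, Cx3cr1 had the largest difference, 0.71 (limma adjusted p = 0.363). Csf1r, the receptor of macrophage growth factor, had means of 167 TPM under PBS and 174 TPM with nanocapsules. The ratio of summed C1q to Csf1r was 0.588, 0.652 and 0.442 under PBS and 0.419, 0.426 and 0.269 with nanocapsules, without overlap (exact permutation p = 0.1, two-sided). Csf1r was added after its values were seen. The ratio to Cd68, a lysosomal protein of macrophages, overlapped between these groups (exact permutation p = 0.3, two-sided), as did that to Mrc1, the mannose receptor, at 0.947 to 2 under PBS and 0.567 to 1.41 with nanocapsules (exact permutation p = 0.6, two-sided). Alveolar macrophage genes, led by Chil3 and Ear2, summed to 1739 to 2707 TPM under PBS, 2783 to 3391 TPM under anti-PD1 and 1540 to 2498 TPM with nanocapsules. C1qa and that sum had r = 0.123 and rho = 0.2 (exact permutation p = 0.747 and 0.613, adjusted 0.918 and 0.828), and r = -0.043 without the 2 farthest lungs.

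C4b, which encodes the C4 protein cleaved by C1s, lies on chromosome 17 from 34728380 to 34743882 on the minus strand of GRCm38. Its annotated transcripts share 48.3% of their 31-base stretches with those of the neighbouring copy C4a, at 34809092 to 34823464, so the split of reads between the copies is uncertain. C4b was at 26.3, 24.4 and 16.2 TPM under PBS, 25.7, 9.25 and 22.4 TPM under anti-PD1 and 15.8, 18.3 and 11.6 TPM with nanocapsules. The groups overlapped, and anti-PD1 lung 2 was again the lowest. C4a stood at 0.552 to 2.29 TPM over all 9 lungs. The C4b log2 differences were -0.30 for anti-PD1 against PBS, -0.51 for nanocapsule against PBS and -0.21 for nanocapsule against anti-PD1 (SE 0.33 each, limma adjusted p = 0.684, 0.610 and 0.686). C4b followed C1qc over the lungs, with r = 0.933 and rho = 0.9 (exact permutation p = 0.000174 and 0.00203, adjusted 0.00208 and 0.0122), and r = 0.960 without the 2 lungs farthest from the median of C1qc.

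**Figure D3:**
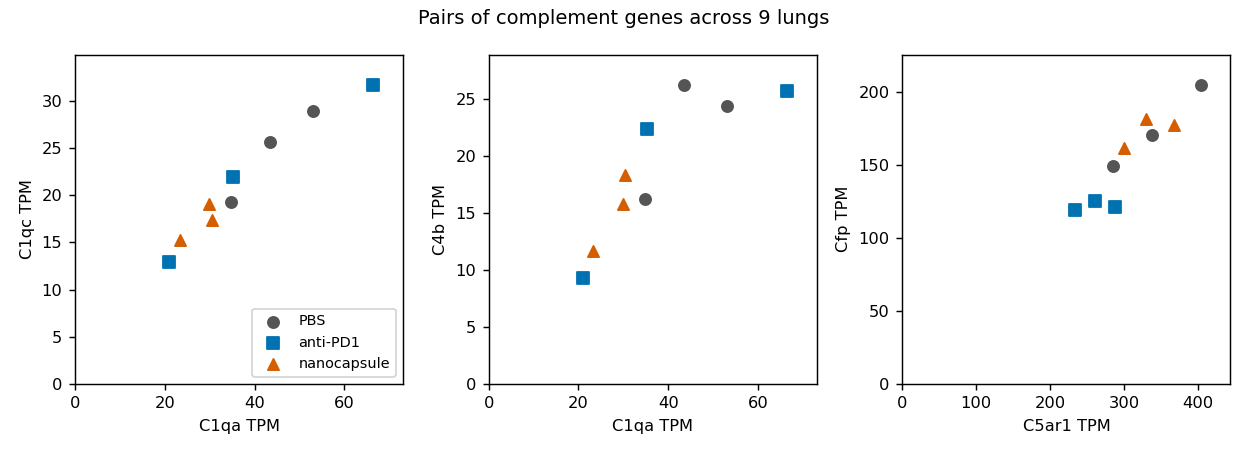
C1qc against C1qa, C4b against C1qa, and Cfp against C5ar1, all in TPM on linear axes from 0, with a point for each of the 9 lungs and the groups as symbols. C1qc lies near a line through the lungs of all groups, and the 3 anti-PD1 lungs are the lowest in Cfp.

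C3, the component on which all pathways meet, lies on chromosome 17 from 57203970 to 57228136 and was the steadiest of the 9 genes, with a coefficient of variation of 13.7% over the lungs. It was at 218, 198 and 190 TPM under PBS, 206, 142 and 153 TPM under anti-PD1 and 167, 186 and 198 TPM with nanocapsules. Anti-PD1 lungs 2 and 3 were the lowest of the series, while anti-PD1 lung 1 lay within the PBS range. The log2 differences were -0.29 (SE 0.14) for anti-PD1 against PBS, -0.14 (SE 0.14) for nanocapsule against PBS and 0.15 (SE 0.14) for nanocapsule against anti-PD1, with limma adjusted p = 0.319, 0.738 and 0.477. The second has a 95% interval from -0.44 to 0.16. Under median-of-ratios scaling it was -0.02.

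Cfb encodes factor B, which supplies the protease of the alternative pathway's C3-cleaving enzyme. It lies on chromosome 17 from 34856374 to 34862518, where the annotation also holds the read-through gene Gm20547, listed at 0 TPM in all 9 lungs. Cfb was at 61.0, 23.5 and 34.9 TPM under PBS, 45.2, 41.4 and 38.8 TPM under anti-PD1 and 28, 27.5 and 32.2 TPM with nanocapsules. PBS lungs 1 and 2 were the highest and the lowest of the series, and all 3 nanocapsule lungs lay below all 3 anti-PD1 lungs, as did 24.6% of all tested genes. The log2 difference between those groups was -0.50 (SE 0.26, limma adjusted p = 0.236). Cfb was called when the fit held these 2 groups alone (limma adjusted p = 0.0465). That fit called far more genes than the 14 of the main fit, as given in the closing section. Against PBS, the differences were 0.17 for anti-PD1 and -0.33 for nanocapsule (SE 0.26 each). They turned to -0.14 without PBS lung 2 and to 0.03 without PBS lung 1.

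Cfb moved with the summed level of genes listed for the mesothelium, the lining of the lung surface. Over the 9 lungs, its correlation with the summed level of 5 mesothelial genes, led by Krt19, also a gene of airway epithelium, and Upk3b, was r = 0.937 and rho = 0.917 (exact permutation p = 0.000298 and 0.00131, adjusted over 99 relations 0.0147 and 0.0325). It was 0.931 without the 2 lungs farthest from the median of Cfb and 0.937 for deviations from the group means (exact permutation p = 0.125 within groups, adjusted 0.535). The mesothelial sum was 56.1 to 144 TPM under PBS, 106 to 145 TPM under anti-PD1 and 74.1 to 77.7 TPM with nanocapsules. Krt19 made up most of it, with a mean of 63.7 TPM over the 9 lungs, against 16.6 TPM for Upk3b. The 5 genes did not all move alike. In anti-PD1 lung 2, Krt19 was the highest of the series at 86.1 TPM. Upk3b, Wt1 and Lrrn4 were the lowest there, at 8.08, 1.56 and 2.01 TPM, with Msln at 8.49 TPM and Cfb at 41.4 TPM. The mesothelial list was not the only one near Cfb. The alveolar macrophage sum had r = 0.792 and rho = 0.833 with it (exact permutation p = 0.0107 and 0.00827, adjusted 0.133 and 0.102). That r was 0.946 without the 2 farthest lungs and 0.783 within groups (exact permutation p = 0.00463, adjusted 0.183). For the fibroblast and neutrophil sums, r was 0.707 and -0.704 (exact permutation p = 0.0334 and 0.0341, adjusted 0.237 each). Whether the amount of lung surface sampled plays a part in Cfb was not tested.

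Cfp encodes properdin, and C5ar1 the receptor of C5a, which draws neutrophils to sites of complement activation. Cfp lies on chromosome X from 20925454 to 20931555 and C5ar1 on chromosome 7 from 16246743 to 16259540, both on the minus strand, and neither overlaps another annotated gene. Their promoters are shown because both genes moved with neutrophil genes and opposite to endothelial genes, as described below. None of the 4 motifs named above matched either window.
Cfp, chrX:20931506-20931805, minus strand: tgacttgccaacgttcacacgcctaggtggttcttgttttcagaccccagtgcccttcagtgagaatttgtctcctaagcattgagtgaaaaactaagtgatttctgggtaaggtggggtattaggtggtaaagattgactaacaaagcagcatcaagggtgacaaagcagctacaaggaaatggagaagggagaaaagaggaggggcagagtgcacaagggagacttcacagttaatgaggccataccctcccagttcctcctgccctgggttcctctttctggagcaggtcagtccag
C5ar1, chr7:16259289-16259588, minus strand: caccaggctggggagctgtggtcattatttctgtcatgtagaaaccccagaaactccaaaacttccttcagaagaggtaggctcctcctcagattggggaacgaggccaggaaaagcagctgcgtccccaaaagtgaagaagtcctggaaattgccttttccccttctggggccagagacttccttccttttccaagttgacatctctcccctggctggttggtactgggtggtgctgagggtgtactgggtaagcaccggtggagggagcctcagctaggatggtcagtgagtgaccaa

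Cfp was lowest in the free antibody lungs. It was at 170, 205 and 149 TPM under PBS, 125, 121 and 119 TPM under anti-PD1 and 162, 181 and 177 TPM with nanocapsules. All 3 anti-PD1 lungs lay below all 6 others, and the PBS and nanocapsule groups overlapped. The means were 175 ± 28.2, 122 ± 3.13 and 173 ± 10.4 TPM (SD, n = 3). The log2 difference was -0.50 (SE 0.11, 95% interval from -0.76 to -0.25) for anti-PD1 against PBS (limma adjusted p = 0.211). For nanocapsule against anti-PD1 it was 0.50 (SE 0.11, limma adjusted p = 0.0677). Cfp was called in the second comparison when the fit held the 2 groups alone (adjusted p = 0.0312), without PBS lung 2 (0.0196) and without PBS lung 3 (0.0476), and the adjusted p over all alternatives was 0.0196 to 0.227. For anti-PD1 against PBS that range was 0.143 to 0.57. For nanocapsule against anti-PD1, the 2-group fit called far more genes than the 14 of the main fit. The closing section gives the counts of all genes called under the alternatives. Against PBS the nanocapsule difference was -0.00045 (SE 0.11), with an interval from -0.25 to 0.25. Groups did not overlap in the lower direction for 13.4% of all genes in anti-PD1 against PBS, where Cfp was the 1 complement gene of the 9 that did so, and in the higher direction for 8.73% in nanocapsule against anti-PD1, where Cfp and C5ar1 did.

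C5ar1 was at 337, 404 and 285 TPM under PBS, 260, 288 and 234 TPM under anti-PD1 and 301, 330 and 367 TPM with nanocapsules. Anti-PD1 lung 2 lay above PBS lung 3, so those groups overlapped, while the lowest nanocapsule lung lay above the highest anti-PD1 lung. The log2 differences were -0.38 (SE 0.14, limma adjusted p = 0.237) for anti-PD1 against PBS and 0.35 (SE 0.14, limma adjusted p = 0.143) for nanocapsule against anti-PD1. For nanocapsule against PBS it was -0.03 (SE 0.14, limma adjusted p = 0.955). The first was -0.25 without PBS lung 2.

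Neutrophil genes moved with both. Of 10 neutrophil genes, led by S100a8 and S100a9, 10 were lower under anti-PD1 than under PBS, 7 of them at an unadjusted p under 0.05 (8.06% of all genes). With nanocapsules 10 were higher than under anti-PD1, 9 of them at that level (6.69% of all genes). None was called. Their summed level was 133660 to 184885 TPM under PBS, 112359 to 129292 TPM under anti-PD1 and 170424 to 193958 TPM with nanocapsules. Relative to Csf3r, the receptor of the neutrophil growth factor G-CSF, C5ar1 stood at 0.2, 0.2 and 0.187 under PBS, 0.202, 0.194 and 0.202 under anti-PD1 and 0.205, 0.203 and 0.192 with nanocapsules. This ratio varied 1.1-fold over the 9 lungs, and the groups overlapped. Csf3r was among the 3 genes picked for the highest r with C5ar1, so this ratio is a description with no test. The ratio of Cfp to Csf3r was 0.0820 to 0.111 and overlapped between all groups. Cfp and the neutrophil sum had r = 0.896 and rho = 0.95 (exact permutation p = 0.002 and 0.000353, adjusted over 99 relations 0.0496 and 0.0175), with r = 0.843 without the 2 lungs farthest from the median of Cfp and 0.885 for deviations from the group means (exact permutation p = 0.0185 within groups, adjusted 0.229). For C5ar1 and that sum they were 0.83 and 0.85 (exact permutation p = 0.00619 and 0.00607, adjusted 0.122 and 0.0859), with r = 0.694 without the 2 lungs farthest from the median of C5ar1 and 0.792 within groups. Cfp and C5ar1 were correlated with r = 0.919 and rho = 0.9 (exact permutation p = 0.000457 and 0.00203, adjusted over 36 pairs 0.00329 and 0.0122), with r = 0.948 without the 2 lungs farthest from the median of Cfp and r = 0.853 for deviations from the group means (exact permutation p = 0.0556 within groups, adjusted 0.25).

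Genes of several lists moved the other way, endothelial genes among them. All 8 endothelial genes, led by Pecam1 and Cldn5, were higher under anti-PD1 than under PBS and lower with nanocapsules than under anti-PD1. In each comparison 8 of 8 had an unadjusted p under 0.05 (8.48% of all genes higher and 21% lower), and limma called none. The same directions held for 10 of 10 alveolar macrophage, 8 of 8 fibroblast, 5 of 5 mesothelial and 5 of 5 dendritic cell genes tested. Of all genes, 56.9% were higher in the first comparison and 70.8% lower in the second. Monocyte genes went as the neutrophil genes did, 6 of 7 lower and then 7 of 7 higher. The endothelial sum was 44.9 to 121 TPM under PBS, 153 to 299 TPM under anti-PD1 and 47.4 to 106 TPM with nanocapsules. Cfp and that sum had r = -0.944 and rho = -0.983 (exact permutation p = 0.000152 and 4.96e-05, adjusted over 99 relations 0.0147 and 0.00491), with r = -0.953 without the 2 farthest lungs and -0.856 for deviations from the group means (exact permutation p = 0.00926 within groups, adjusted 0.183). For C5ar1 and that sum they were -0.929 and -0.933 (exact permutation p = 0.000493 and 0.00075, adjusted 0.0163 and 0.0247). The r was -0.832 without the 2 farthest lungs and -0.851 within groups (exact permutation p = 0.0324, adjusted 0.292). By size of r, C5ar1 was thus closer to the endothelial sum than to the neutrophil sum, which was mostly S100a8 and S100a9. Csf3r, a gene of the neutrophil list picked for its r, had r = 0.985 with C5ar1. Only the neutrophil and monocyte marker sums had a positive r with Cfp and C5ar1. Among the negative ones, the dendritic cell sum had r = -0.802 with Cfp and the fibroblast sum r = -0.809 with C5ar1. Mitochondrial transcripts made up 2.37% to 4.38% of the TPM under PBS, 5.01% to 5.76% under anti-PD1 and 2.22% to 3.30% with nanocapsules, so the 3 anti-PD1 lungs lay above all 6 others, where Cfp lay below them. TPM are shares of a fixed total, and the part of the neutrophil, endothelial and mitochondrial shares in Cfp and C5ar1 was not tested.

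**Figure D4:**
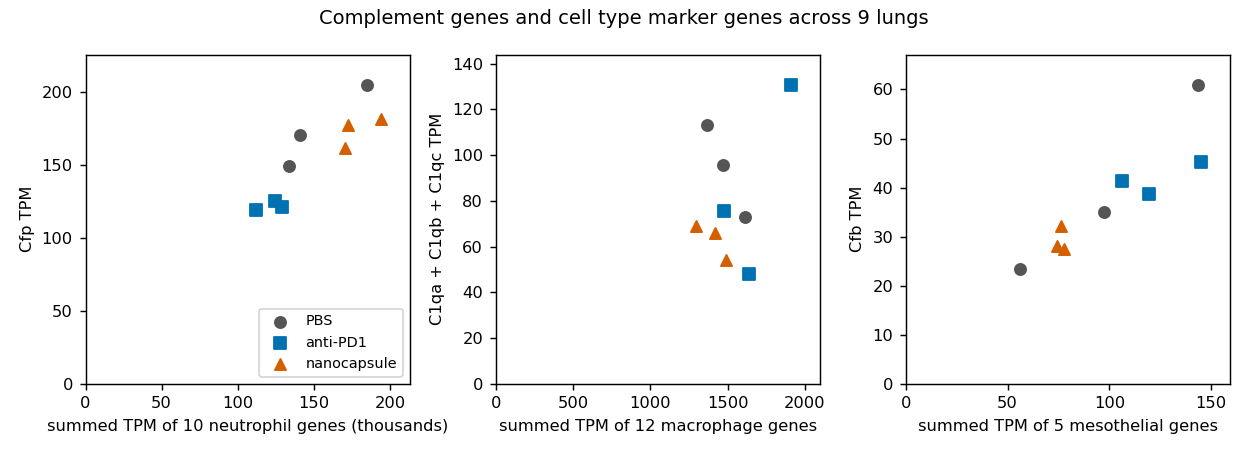
Cfp against the summed level of 10 neutrophil genes, summed C1q against that of 12 macrophage genes, and Cfb against that of 5 mesothelial genes, in TPM on linear axes from 0, with a point for each of the 9 lungs. Cfp and Cfb are higher where their lists are higher, while C1q spans 48.0 to 131 TPM with no order by the macrophage sum.

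C3ar1, the receptor of C3a, lies on chromosome 6 from 122847138 to 122856161. It was at 1.29, 2.33 and 1.75 TPM under PBS, 2.92, 1.34 and 1.92 TPM under anti-PD1 and 1.64, 1.61 and 1.38 TPM with nanocapsules. All groups overlapped. The log2 differences were 0.12, -0.12 and -0.24 (SE 0.22 each) for anti-PD1 against PBS, nanocapsule against PBS and nanocapsule against anti-PD1, with limma adjusted p = 0.827, 0.876 and 0.494. At this level the added 1 TPM shrinks the differences. C5ar1 exceeded C3ar1 by 89.3-fold to 266-fold in the same lung.

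The genes whose profiles over the 9 lungs were most like those of the members, by Pearson r of log2(TPM + 1), were sought among 11973 tested genes, which left out the 9 members themselves, predicted genes, RIKEN clones and pseudogenes. They differed between the C1q genes and the pair of Cfp and C5ar1. For Cfp they were Mmp9, a gelatinase of neutrophil granules (r = 0.992), Hk3, a myeloid hexokinase (0.988), and Tgm1 (0.985). For C5ar1 they were Grina (0.988), Map2k3, a kinase of the p38 pathway (0.986), and Csf3r (0.985). Among these 11973 non-member genes, r was over 0.9 for 281 with Cfp and 317 with C5ar1, against 1 with C1qa, 2 with C1qb and 0 with C1qc. Ecm1, which encodes a secreted matrix protein, and Zfp101 were among the nearest 3 non-member genes for all C1q genes, with r of 0.912 and 0.883 for C1qa, 0.950 and 0.909 for C1qb and 0.882 and 0.883 for C1qc. The third was Tap2 (0.874), a peptide transporter of antigen presentation, for C1qa, Zfp692 (0.852) for C1qb and Fst (0.859) for C1qc. For C4b they were Cdkn2a (0.942), Tmem221 (0.936) and Gfpt2 (0.894), and for C3 Tbl1xr1 (0.919), Atp8a1 (0.915) and the ficolin gene Fcna (0.903). For Cfb they were Igsf3 (0.964), Lactb2 (0.935) and Kif3a (0.926), and for C3ar1 Cacnb1 (0.903), Lin37 (0.895) and Slc35b3 (0.872). These genes were picked for their r, which is therefore a description.

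The rest of the pathway was uneven in the lung. Of 46 other complement genes listed, 45 were matched by name and 22 passed the filter on low values. Of these, 1 was higher and 4 were lower under anti-PD1 than under PBS at an unadjusted p under 0.05 (8.48% and 8.06% of all genes). The counts were 0 and 1 with nanocapsules against PBS (1.22% and 8.92%), and 2 and 4 with nanocapsules against anti-PD1 (6.69% and 21%). None was called by limma. The median log2 differences were -0.01, -0.05 and -0.12 in the same order. Mbl2, C8b and C9 were at 0 TPM in all 9 lungs, and Cfd, which encodes factor D, the protease that cleaves factor B, was at 0 to 0.379 TPM beside 23.5 to 61.0 TPM of Cfb. Among the terminal components, Hc, which encodes C5, was at 4.25 to 10.2 TPM.

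C1ra and C1s1, the proteases of the C1 complex, and C2 were highest in anti-PD1 lung 1 or PBS lung 1. C1ra was at 23.5, 11.3 and 15.6 TPM under PBS, 29.6, 16.5 and 23.3 TPM under anti-PD1 and 15.5, 15.7 and 14.3 TPM with nanocapsules. PBS lung 2, the second highest lung in C1qa, was the lowest in C1ra. C1qa and C1ra thus differed in the place of PBS lung 2, while anti-PD1 lung 1 was the highest in both. Their correlation was not computed.

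**Figure D5:**
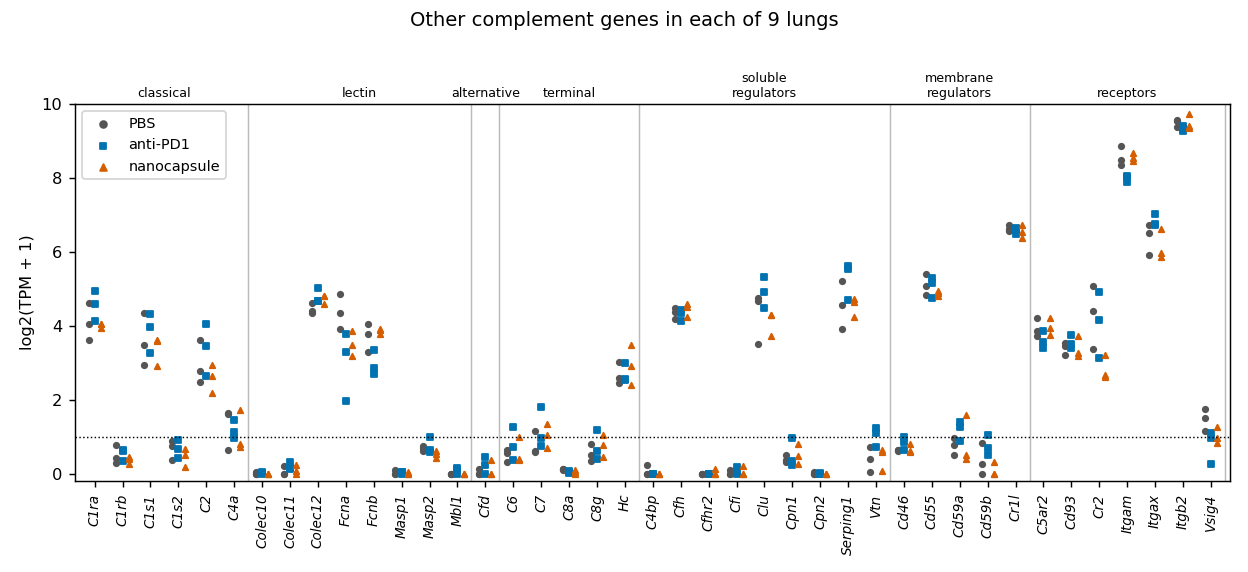
Log2(TPM + 1) (vertical axis) of the 41 other complement genes above 0 in at least 1 lung, grouped by role, with a symbol for each of the 9 lungs and a dotted line at 1 TPM. Receptors such as Itgb2 and Itgam and the membrane regulator Cr1l are the highest, while most lectin pathway and terminal genes lie under the line.

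The receptors and pattern recognition genes described next were picked for the smallest p among the 22 other complement genes tested. Groups without overlap are to be read against the shares of all tested genes. For anti-PD1 against PBS, 12.1% did not overlap in the higher direction and 13.4% in the lower. The shares were 2.4% and 11.9% for nanocapsule against PBS, and 8.73% and 24.6% for nanocapsule against anti-PD1. Itgam, the CD11b chain of complement receptor 3, was at 362, 467 and 327 TPM under PBS, 258, 266 and 236 TPM under anti-PD1 and 354, 373 and 409 TPM with nanocapsules. Its anti-PD1 lungs lay below all others, as those of Cfp did, with log2 differences of -0.59 against PBS (SE 0.13, limma adjusted p = 0.211) and 0.58 for nanocapsule against anti-PD1 (SE 0.13, limma adjusted p = 0.0671). Fcnb, a ficolin of neutrophil granules, had means of 12.3, 6.97 and 13.6 TPM in the PBS, anti-PD1 and nanocapsule lungs, with log2 differences of -0.74 and 0.90 (SE 0.21 each, limma adjusted p = 0.211 and 0.0723) for the same comparisons, and its anti-PD1 and PBS lungs overlapped.

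Fcna, a ficolin of macrophages, was at 28.3, 19.5 and 14.1 TPM under PBS, 12.9, 2.95 and 8.79 TPM under anti-PD1 and 8.02, 10.2 and 13.4 TPM with nanocapsules. All lungs given either form of the antibody lay below all PBS lungs, and the log2 differences from PBS were -1.36 for anti-PD1 and -0.88 for nanocapsule (SE 0.41 each, limma adjusted p = 0.214 and 0.495). Vsig4, a macrophage receptor of C3 fragments, had means of 1.81, 0.763 and 1.05 TPM in the PBS, anti-PD1 and nanocapsule lungs, with log2 differences from PBS of -0.70 and -0.45 (SE 0.26 each, limma adjusted p = 0.247 and 0.569). Colec12, a collectin receptor, had means of 21.0, 27.0 and 25.7 TPM in the PBS, anti-PD1 and nanocapsule lungs. All 3 anti-PD1 lungs lay above all PBS lungs, while the nanocapsule and PBS lungs overlapped, and the log2 differences from PBS were 0.34 and 0.28 (SE 0.13 each, limma adjusted p = 0.252 and 0.495).

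Cr2, a complement receptor of B cells, was at 20.0, 9.40 and 33.0 TPM under PBS, 29.2, 7.79 and 17.0 TPM under anti-PD1 and 8.31, 5.32 and 5.18 TPM with nanocapsules. The highest nanocapsule lung lay below the lowest PBS lung, the log2 difference being -1.45 (SE 0.48, limma adjusted p = 0.397), and the difference from the anti-PD1 lungs was -1.24 (SE 0.48, limma adjusted p = 0.141). The 4 B cell genes, led by Cd79a and Cd79b, summed to 268 to 487 TPM under PBS, 278 to 455 TPM under anti-PD1 and 158 to 219 TPM with nanocapsules. The part of B cell number in Cr2 was not tested. Itgax, the CD11c chain of complement receptor 4, was at 106 to 130 TPM under anti-PD1 and 57.0 to 97.4 TPM with nanocapsules, without overlap (log2 difference -0.69, SE 0.23, limma adjusted p = 0.112). In that comparison 10 of 10 alveolar macrophage genes were also lower, 7 of them at an unadjusted p under 0.05, against 70.8% and 21% of all genes, and their part in Itgax was not tested.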

How the data were processed

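The deposited values were gene-level TPM, 1 column for each of the 9 lungs, which the authors made and which sum to 1000000 per column. Salmon is named in the title of the deposited table; DESeq2 and the build GRCm38 appear, without version or role, per the submitters' processing notes. Any filter applied earlier is not given in the sources used here. Since TPM keep no depth, no count test was run and no counting interval can be given.

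The 13248 of 45706 genes that reached 1 TPM in 3 or more lungs were tested in limma 3.58.1 (R 4.3.3). The model took log2(TPM + 1), an intensity trend and 1 spread estimate for the 3 groups, with 6 residual degrees of freedom. All tests are two-sided; the Benjamini-Hochberg adjustment ran over all genes tested. Ratios and correlations used exact permutation tests (Python 3.11.15, numpy 2.4.6). No batch is labelled. Positions come from GENCODE M21 on GRCm38 and promoters from RefSeq on GRCm38.p6, where 6 of the 9 genes were matched. The promoters of C1qa, C4b and Cfb were not among them.

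The genes and lists were chosen with earlier results of these data known. Named were the 9 members and the 4 other complement genes with the smallest p in each comparison. Also named were the 3 genes with the highest r for each member and the 2 most abundant genes of each marker list used. C1ra, C1s1, C2, C4a, Hc, Cfd, Csf1r, Mrc1, Itgb2, Cr1l, Mbl2, C8b and C9 were added after their values were seen. So were Folr2, Lyve1, Mertk, Cx3cr1, Wt1, Lrrn4 and Msln. Alternatives changed the pseudocount, filter, scaling, variance model, samples in the fit, replicate block or 1 lung at a time. For lists described briefly or not at all in the text, the members lower under anti-PD1 than under PBS were counted. They were 6 of 7 monocyte genes, 1 of 8 alveolar type 2 genes, 1 of 5 club cell genes, 0 of 8 fibroblast genes and 0 of 5 dendritic cell genes tested.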

Additional observations from a re-analysis of the deposited data

How the results depend on the processing

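Of the log2 differences of the 9 genes under all alternatives, 431 kept their direction and their side of the threshold, 5 passed it where the reported value did not, and 20 changed sign. For nanocapsule against PBS, median-of-ratios scaling gave 0.087 for C5ar1 and 0.12 for Cfp, and TPM rescaled without S100a8 and S100a9 gave 0.011 and 0.039. Leaving out 1 lung at a time gave, for anti-PD1 against PBS, -0.64 to 0.17 for C1qa, -0.50 to 0.11 for C1qc, -0.56 to 0.13 for C4b, -0.074 to 0.30 for C3ar1 and -0.14 to 0.53 for Cfb. For nanocapsule against PBS it gave -0.25 to 0.020 for C3ar1, -0.15 to 0.10 for C5ar1, -0.65 to 0.026 for Cfb and -0.11 to 0.12 for Cfp. For nanocapsule against anti-PD1 it gave -0.79 to 0.020 for C1qa, -0.44 to 0.14 for C1qb, -0.59 to 0.025 for C1qc and -0.64 to 0.048 for C4b.

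The count of all genes called for anti-PD1 against PBS was 1, and 0 with a pseudocount of 0.1, median-of-ratios scaling, TPM without S100a8 and S100a9, or no intensity trend, and 0 to 3 without 1 lung. For nanocapsule against PBS it was 1, with 2 at a pseudocount of 0.1, 0 with no filter, 4 with median-of-ratios scaling, 4 without S100a8 and S100a9, 2 with no trend, and 0 to 4 without 1 lung. For nanocapsule against anti-PD1 it was 14, with 3 at no filter, 182 at 5 TPM or more, 71 without S100a8 and S100a9, 2 with no trend, 476 in a fit of the 2 groups alone, and 0 to 960 without 1 lung. Of the 9 genes, 0 to 1 was called there without 1 lung and 2 in the fit of the 2 groups. At an unadjusted p under 0.05, without 1 lung, the 9 genes gave 1 to 5 for anti-PD1 against PBS, 0 to 3 for nanocapsule against PBS (4 in the fit of 2 groups) and 1 to 5 for nanocapsule against anti-PD1. The other complement genes gave 3 to 8, 1 to 3 and 3 to 8, and for nanocapsule against PBS 2 with median-of-ratios scaling, without S100a8 and S100a9, or with 2 groups. The share of all genes at that unadjusted level was not counted under the alternatives, so these counts cannot be read against it. The cause of the shifts between alternatives was not tested.

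Deviations of same-numbered lungs had correlations of 0.064, 0.279 and 0.278 between the anti-PD1 and PBS groups. They were -0.182 to 0.144 where the nanocapsule group was compared with either. The labels do not say that the numbers pair the lungs, so they are not taken to do so. Whether same-numbered lungs were handled together is not given in the sources used here. With a replicate block, 1095 genes were called for nanocapsule against anti-PD1, 1 of them among the 9 (Cfp, limma adjusted p = 0.0391), and 5 for nanocapsule against PBS, where 2 other complement genes had an unadjusted p under 0.05. With at least 5 TPM required, C3ar1 was not tested. Depth is unknown for TPM, so counting error at the level of C3ar1 cannot be given, and 3 lungs a group limit every interval.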
